A study of Mus musculus with 8 samples.

Results

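The regions described here are the accessible sites of LSK cells that lie in an intron other than the first one of their host transcript. LSK cells (Lin-, Sca-1+, cKit+) are the bone marrow fraction that holds the haematopoietic stem and multipotent progenitor cells. Every MACS2 peak whose deposited annotation named an intron with number 2 or higher was taken, and overlapping peaks of the 4 libraries were merged. This gave 13153 regions from 19838 peaks, out of 60531 merged regions of any annotation. The regions covered 5.50 Mb and lay in 5178 host genes with a gene identifier, while some regions lay in transcripts that carry none.

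Omni-ATAC-seq had been run on 2 WT and 2 Dido1∆E16 libraries of sorted LSK cells, in which the Tn5 transposase inserts adapters into open chromatin. The mutant mice were Dido1flE16/∆E16;R26R-EYFP;iCreVav1, with one floxed allele and one allele already lacking exon 16, and the labels call this genotype a DIDO3 exon 16 mutant. The WT controls were Dido1flE16/+;R26R-EYFP;iCreVav1 littermates with the same reporter and Cre, so both genotypes carried the recombinase and the controls also had one floxed allele. The Vav1 promoter drives it in haematopoietic cells from early development on, and the mice were between 6 and 10 weeks old, of the strain labelled C57BL/6. Dido3 is the longest product of Dido1, a chromatin reader with a PHD finger, and the deletion removes its C terminus. The study calls the 2 libraries of a genotype biological replicates, while its methods mention 3 samples per genotype, and the labels tie no library to an animal. The p-values measure the spread between these libraries, which may in part be technical. The mutant libraries are marked MUT in the plots.

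Introns after the first one are mostly distant from the start of transcription, and their open sites are often enhancers, which bind lineage transcription factors and act on promoters through looping. In haematopoietic progenitors such elements are known to be bound by ETS, RUNX and GATA factors. A MACS2 score rises with the evidence for a peak over the local background, so a missing peak means that the signal did not reach the caller's threshold. In such bulk material, fewer cells with an open site and less opening per cell cannot be told apart.

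The following windows show the sequence at the centre of a few regions, 200 bp each, read from GRCm38 on the plus strand. They were chosen because they stand for the main presence patterns. They lie in genes named by the study, or are regions of the highest scores with a MACS2 peak in the WT libraries only or in all 4. A peak in the headings is a MACS2 peak. HOMER, another peak caller, also found a peak in MUT replicate 2 at Acot12 and at the Etv6 region headed WT libraries only. Capitals mark matches, on either strand, to the 11 short motifs counted further on.

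Etv6, peak in all 4 libraries, intron 2 of 7, chr6:134220416-134220615: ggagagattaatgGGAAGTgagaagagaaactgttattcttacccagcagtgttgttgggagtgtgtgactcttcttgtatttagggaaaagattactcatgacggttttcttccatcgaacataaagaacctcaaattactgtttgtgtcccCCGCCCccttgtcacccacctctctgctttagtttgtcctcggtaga

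Etv6, peak in both WT libraries only, intron 2 of 7, chr6:134189843-134190042: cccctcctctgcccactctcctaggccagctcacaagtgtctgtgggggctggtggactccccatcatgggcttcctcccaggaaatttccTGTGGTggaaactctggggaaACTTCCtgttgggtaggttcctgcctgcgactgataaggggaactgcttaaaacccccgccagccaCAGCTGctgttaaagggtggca

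Ebf1, peak in both WT libraries only, intron 4 of 5, chr11:44624725-44624924: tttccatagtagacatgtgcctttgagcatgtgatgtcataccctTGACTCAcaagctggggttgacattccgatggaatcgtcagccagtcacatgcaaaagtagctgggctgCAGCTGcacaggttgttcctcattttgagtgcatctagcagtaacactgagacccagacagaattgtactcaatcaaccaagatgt

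Runx1, peak in both WT libraries only, intron 2 of 7, chr16:92715720-92715919: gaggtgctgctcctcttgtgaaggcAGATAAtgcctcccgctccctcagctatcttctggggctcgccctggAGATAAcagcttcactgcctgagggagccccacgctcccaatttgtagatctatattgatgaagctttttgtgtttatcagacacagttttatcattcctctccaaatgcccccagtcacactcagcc

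Igf1r, peak in both WT libraries only, intron 2 of 20, chr7:68062980-68063179: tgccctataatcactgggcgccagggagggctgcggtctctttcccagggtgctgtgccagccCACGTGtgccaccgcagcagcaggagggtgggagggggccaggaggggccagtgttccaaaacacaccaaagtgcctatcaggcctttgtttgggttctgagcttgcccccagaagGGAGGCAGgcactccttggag

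Acot12, peak in both WT libraries only, intron 2 of 14, chr13:91753770-91753969: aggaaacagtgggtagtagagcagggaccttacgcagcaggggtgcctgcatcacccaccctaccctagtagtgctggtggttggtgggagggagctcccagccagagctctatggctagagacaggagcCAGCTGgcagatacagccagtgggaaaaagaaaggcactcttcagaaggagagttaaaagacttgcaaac

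Transcript without a gene identifier near Gad2, peak in all 4 libraries, intron 3 of 6, chr2:22588684-22588883: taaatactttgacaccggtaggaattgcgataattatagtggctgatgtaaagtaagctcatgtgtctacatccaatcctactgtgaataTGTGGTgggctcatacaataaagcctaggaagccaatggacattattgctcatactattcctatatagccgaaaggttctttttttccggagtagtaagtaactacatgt

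The Etv6 window with a MACS2 peak in all 4 libraries carried a match to the ETS and the GC box motif. The one with a MACS2 peak in WT libraries only carried an ETS, a RUNX and a CAGCTG E-box match. The Igf1r window held an E-box CACGTG and a CTCF core match. The Ebf1 window held an AP-1 and a CAGCTG E-box match, and the Runx1 window 2 GATA matches. The window near Gad2 belonged to a region of 2922 bp in which 59.4% of all 25-base words also stand in the mitochondrial genome. It was the only one of the 13153 regions in which at least 50% of the words did so.

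The libraries differed in depth and in the number of peaks. WT replicates 1 and 2 had 10249256 and 52050898 tags in total, and MUT replicates 1 and 2 had 22533077 and 44633938. The number of peaks of any kind was 27352 and 57739 in the WT libraries, against 13208 and 16329 in the MUT libraries. Both MUT libraries were thus deeper than WT replicate 1 and had fewer peaks. Promoter peaks were found at Kit, Cd34, Flt3 and Meis1, 4 of the 9 LSK markers examined, in all 4 libraries, and at Ly6a, which encodes Sca-1, in none. None of the 5 T-cell markers had one in any library, and of the 5 B-cell markers Ms4a1 had one, in MUT replicate 1. Of the 5 myeloid markers, 1 and 2 had a promoter peak in WT replicates 1 and 2 and 0 in both MUT libraries. Of the 5 erythroid and of the 3 NK markers, 1 each had one, in WT replicate 2. The part of other cell types in the differences between the genotypes was not tested.

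Fewer sites in later introns were called in Dido1∆E16 LSK cells. WT replicates 1 and 2 had 4590 and 12197 later-intron peaks, and MUT replicates 1 and 2 had 1162 and 1889. The groups did not overlap, and neither did the numbers of peaks of any kind given above. Per 1000000 tags, these were 448 and 234 later-intron peaks in WT and 51.6 and 42.3 in MUT libraries. The number of peaks need not rise in proportion to the tags. The part of depth and of library quality in these counts was not tested.

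Later introns also took a smaller share of the peaks. They held 16.8% (Wilson 95% interval 16.3 to 17.2) and 21.1% (20.8 to 21.5) of the peaks of the WT libraries, and 8.80% (8.33 to 9.29) and 11.6% (11.1 to 12.1) of those of the MUT libraries. These intervals cover counting error only. WT libraries averaged 19.0% ± 3.07 (SD, n = 2). MUT libraries averaged 10.2% ± 1.96 (SD, n = 2), a difference of -8.77 percentage points. In an exact two-sided permutation test the p-value was 0.33, the smallest that 2 against 2 libraries can give. When each library contributed its 13208 best-scoring peaks, the shares were 13.0% and 12.9% in WT and 8.80% and 10.6% in MUT libraries, and the difference fell to -3.24 points. Among intronic peaks alone, later introns held 61.2% and 63.5% in WT and 54.5% and 57.8% in MUT libraries, so that later introns had the lower share of intronic peaks in both MUT libraries.

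**Figure D1:**
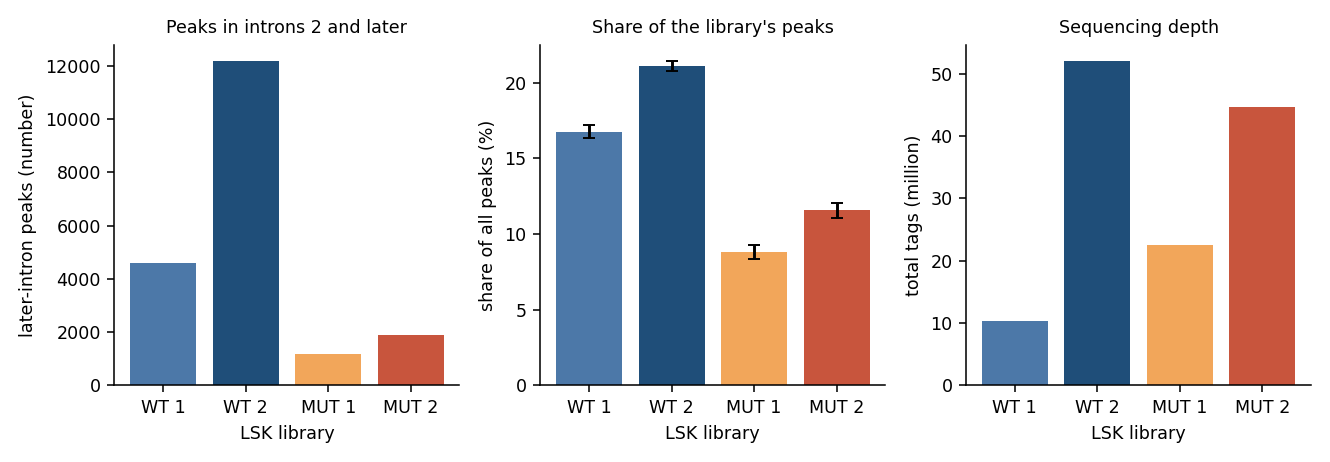
Number of later-intron peaks, their share of all peaks in percent (bars with Wilson 95% intervals) and total tags for each LSK library. The MUT libraries had 1162 and 1889 later-intron peaks, and the WT libraries 4590 and 12197.

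The later-intron peaks of the MUT libraries ranked lower among all peaks of their library, and so did those of the other classes. The median score of later-intron peaks was 30 and 42 in WT and 30 and 25 in MUT libraries. At promoters it was 48 and 89 in WT and 50 and 37 in MUT libraries. Ranked among all peaks of their own library, the median later-intron peak stood at percentile 40.9 and 43.5 in WT and at 31.4 and 39.0 in MUT libraries. For promoters these percentiles were 69.4 and 77.6 in WT and 61.8 and 63.9 in MUT libraries, a larger difference. First introns had 38.6 and 40.9 against 31.4 and 36.2, and intergenic regions 43.0 and 44.7 against 36.8 and 39.0. The lower rank was thus shared by all 4 classes. Percentiles are ranks among all peaks of a library. They thus also depend on its mix of classes and its number of peaks, which both differed between the genotypes. For later introns the difference of the means was -6.94 percentile points (exact two-sided permutation p = 0.33, n = 2 per genotype), and -3.16 without MUT replicate 1. Median peak widths of 308 and 350 bp in WT and 296 and 313 bp in MUT libraries overlapped between the genotypes. The median distance to the nearest transcription start was 59.9 and 63.0 kb in WT and 52.1 and 59.9 kb in MUT libraries.

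Presence at each region was then recorded, counting any MACS2 peak of a library that overlapped the region by at least 1 bp. The largest set, 7587 regions or 57.7%, had a peak in WT replicate 2 only. Next came 2850 regions (21.7%) with peaks in both WT libraries and in neither MUT library. Peaks in all 4 libraries were found at 540 regions (4.1%). A further 1010 regions had peaks in both WT libraries and in one MUT library, of which 757 were in MUT replicate 2 and 253 in MUT replicate 1. Only 364 regions had a MUT peak and no WT peak, 277 in MUT replicate 2, 69 in MUT replicate 1 and 18 in both.

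**Figure D2:**
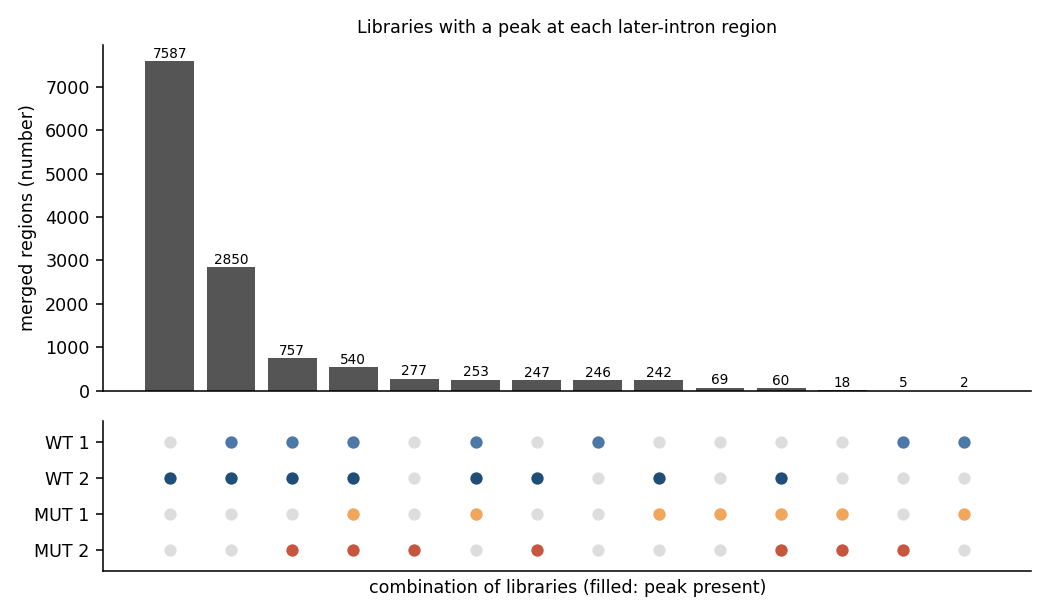
Number of merged later-intron regions (bars) for each combination of libraries with a peak (filled points below). The 2 tallest bars are the 7587 regions of WT replicate 2 alone and the 2850 regions of both WT libraries without a MUT peak.

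Few MUT peaks lay at new sites. Of the later-intron peaks of MUT replicate 1, 92.3% overlapped a peak of WT replicate 2 and 65.9% one of WT replicate 1, and for MUT replicate 2 the shares were 84.0% and 67.8%. In the other direction, 16.4% and 27.0% of the peaks of WT replicate 1 were found in MUT replicates 1 and 2, while 94.5% were found in WT replicate 2. At promoters, 75.8% and 76.1% of the peaks of WT replicate 1 were found in the MUT libraries. The 2 MUT libraries shared fewer later-intron peaks with each other than with WT replicate 2, since 51.2% of those of replicate 1 were found in replicate 2 and 31.9% in the other direction. WT replicate 2 had 57739 peaks of any kind, against 13208 and 16329 in the MUT libraries. An overlap with it is therefore easier to reach.

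Regions present in more libraries were wider, as a width merged over more peaks tends to be. The median width was 292 bp for regions of WT replicate 2 alone, 472 bp for those of both WT libraries without a MUT peak and 703 bp for those in all 4 libraries. The median score in WT replicate 2 was 34, 59 and 133 in these 3 sets. It did not rise in every set. The 247 regions of WT replicate 2 and MUT replicate 2 had 30, and the 60 of WT replicate 2 and both MUT libraries had 27. At the 540 regions of all 4 libraries the median percentile was 76.5 and 89.2 in WT and 41 and 62.4 in MUT libraries. The shared sites thus ranked lower among the peaks of their library in both MUT libraries than in either WT library. This rank, too, depends on the mix of classes in the library. It also depends on the number of peaks called, which was lower in both MUT libraries.

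Loss of the peak was frequent at the 4400 regions that both WT libraries shared. Of these, 3607 (82.0%) had no peak in MUT replicate 1 and 3103 (70.5%) none in MUT replicate 2. Neither MUT library had a peak at 2850, called lost in what follows, or 64.8% (Wilson 95% interval 63.3 to 66.2). Over regions of all annotations the share was 43.1% (11112 of 25755). It was 14.9% at 9937 promoters, 55.3% at 2883 first introns and 59.2% at 7501 intergenic regions. With HOMER peaks the later-intron share was 42.5%, against 7.27% at promoters, 37.9% at first introns and 40.8% at intergenic regions. With the 13208 top-scoring peaks of each library it was 29.95%, against 2.79% at promoters, 24.4% at first introns and 27.4% at intergenic regions.

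Low-scoring peaks were lost more often, and the share without a MUT peak was therefore compared within 5 classes of the WT score. In the lowest class, with a mean WT score under 37.5, 90.4% of the later-intron regions had no MUT peak. The share was 79.9%, 63.5% and 39.8% in the next classes and 7.98% in the highest class, which starts at 102.5. At promoters these shares were 63.0%, 31.2%, 15.3%, 5.0% and 0.471%. On average over the classes, later introns stood 33.3 points above promoters, 40.7 in MUT replicate 1 alone and 28.5 in MUT replicate 2 alone. All 5 classes showed that direction.

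The gap to other distal sites was smaller. Later introns exceeded first introns by 8.50 points on average, with 8.81 and 6.69 points in MUT replicates 1 and 2. They exceeded intergenic regions by 3.32 points, with 3.70 and 2.81 points in the single libraries. In the highest score class the order turned, by -1.35 points against first introns and by -0.689 against intergenic regions, when a peak in neither library was asked for. In each MUT library taken alone, all 5 classes had the higher share in later introns. With equal numbers of best-scoring peaks the gaps were 20.1, 5.20 and 1.5 points to promoters, first introns and intergenic regions. These gaps are descriptions over one set of 4 libraries and carry no test.

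**Figure D3:**
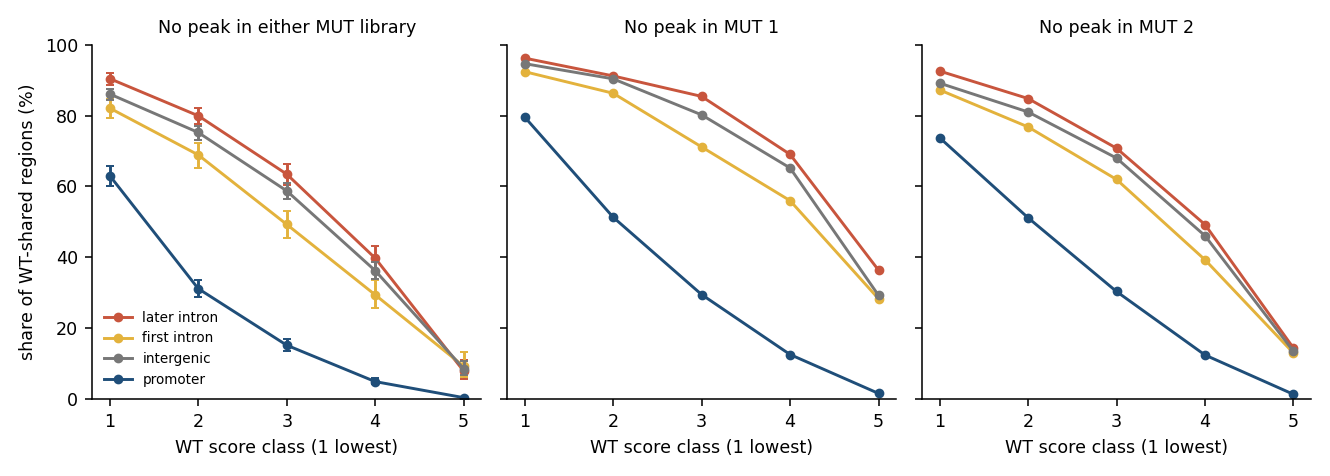
Share of WT-shared regions without a peak in either MUT library (left, with Wilson 95% intervals), in MUT 1 and in MUT 2, in percent, by class of the mean WT score for 4 kinds of regions. Later introns fell from 90.4% in the lowest class to 7.98% in the highest, and stood above promoters in each class.

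A missing MACS2 peak did not always mean a missing HOMER peak. Of the 2850 regions without a MUT peak, 2592 (90.9%) had no HOMER peak in MUT replicate 1 and 2092 (73.4%) none in MUT replicate 2. Neither program found a MUT peak at 1970 of them (69.1%). At 1209 (42.4%) HOMER found a peak in both WT libraries and in no MUT library.

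The share without a MUT peak grew with the number of the intron. It was 59.5% (Wilson 95% interval 56.6 to 62.2) in intron 2, 64.4% in intron 3, 65.2% in introns 4 and 5, 68.0% in introns 6 to 10 and 68.8% (65.5 to 71.9) beyond. The median WT score hardly moved, from 52.5 in intron 2 to 51 beyond intron 10. MUT replicate 1 lacked a peak at 77.5% and 84.9% of the regions in these outer classes, and MUT replicate 2 at 66.7% and 74.0%. Distance to the transcription start showed a similar order at its ends, with 39.5% (29.2 to 50.7) of 76 regions under 2 kb and 68.7% (66.4 to 70.9) of 1608 regions beyond 100 kb. Over the chromosomes the share ran from 57.1% on chromosome 11 to 80% (68.2 to 88.2) on chromosome X, which held 60 of these regions.

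In base composition, later-intron regions were distal in kind. The central 200 bp had a mean GC content of 48.9%, against 44.0% in the windows 2 kb to each side that touch no peak, 64.3% at promoters and 49.0% in intergenic regions. They held 2.97 CpG on average, against 16.5 at promoters. Regions without a MUT peak had a GC content of 48.5%, and those in all 4 libraries 52.4%. Within the first 4 score classes the lost regions had 49.0%, 48.2%, 48.2% and 48.3% GC and the others 53.5%, 51.2%, 50.8% and 50.8%. In the highest class, with 32 lost regions, the values were 50.2% and 50.6%. A GENCODE transcription start lay within 1 kb of 11.4% of all later-intron regions, of 11.2% of the lost and of 21.9% of those in all 4 libraries. The part of base composition in the loss was not tested.

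Short motifs of haematopoietic factors were counted in the same windows, on both strands. The ETS motif GGAAGT, bound by the family of Etv6, Fli1 and Spi1, stood in 27.0% of the later-intron windows (Wilson 95% interval 26.2 to 27.8) and in 11.5% of the flanking windows. The RUNX motif TGTGGT stood in 25% against 14.6%, and the E-box CAGCTG, a site of E proteins such as Tcf3, Tcf4 and Tcf12, in 15.2% against 9.16%. The GC box GGGCGG was found in 6.21% against 2.43%, far below the 50.5% of promoter windows. Smaller differences were seen for the MEIS motif TGACAG (17.7% against 14.2%), the CTCF core GGNGGCAG (9.42% against 6.23%), AP-1 TGANTCA (8.23% against 5.85%), C/EBP TTGCNNAA (9.16% against 8.05%) and the E-box CACGTG (3.76% against 2.70%). The GATA motif AGATAA was not more frequent in the regions (10.3%) than beside them (11.7%), and neither was AACTTT, a motif the study discusses (10.1% against 13.8%). Matches of different motifs can share bases, as the MEIS motif ends and the E-box CAGCTG begins with CAG. The flanking windows had a lower GC content than the regions (44.0% against 48.9%), and its part in these differences was not tested.

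First introns and intergenic regions held the ETS motif in 26.7% and 24.8% of their windows and the RUNX motif in 22.6% and 23.6%. Promoter windows held them in 17.7% and 7.92%. Lost regions were then compared with the other WT-shared regions. The ETS motif stood in 30.8% of the 2850 lost regions and in 30.5% of the other WT-shared regions. The RUNX motif stood in 26.9% and 29.5%, but within score classes it was less frequent in lost regions in 2 of 5, and more frequent by 0.608 points on average. Such averages weigh each class equally, although the highest held 32 lost regions and the lowest 103 regions that kept a MUT peak. AACTTT was more frequent in lost regions in each of the 5 score classes, by 2.42 points on average and between 0.394 and 4.24 points. The MEIS motif was less frequent in lost regions in each class, by 1.66 points on average. The GC box was less frequent in lost regions in 4 of 5 classes, by 3.33 points on average. The other 8 motifs were less frequent in lost regions in 1 to 3 of the 5 classes, with a mean difference, lost minus others, between -1.75 and 1.00 points. These are counts of letters and not binding sites. None of the differences was tested, and neither was the part of base composition in them.

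The reverse set, regions with a peak in both MUT libraries and in no WT library, numbered 18 of the 618 later-intron regions that both MUT libraries shared. Over all annotations the share was 1.01% (97 of 9616). The count depended on the libraries used: it was 295 with MUT replicate 2 alone, 87 with MUT replicate 1 alone, 78 against WT replicate 1 alone, and 100 with equal numbers of best-scoring peaks. Their sequence stood apart. The central 50 bases occurred at more than 1 place in the genome at 15 of the 18 (83.3%), and at more than 10 places at 13. In the 346 regions of a single MUT library, 70.8% had such copies, against 2.04% of the 2850 regions lost in MUT and 8.33% of the 540 regions of all 4 libraries. The 200 bp window was entirely soft-masked repeat in 55.5% of the former and in 0.281% of the lost regions. HOMER found a peak in the same library at 36 of the 364 regions seen in MUT libraries only. Intergenic and first-intron regions seen only in MUT libraries had copies in 79.4% and 50.5% of cases, and such promoters in 10.5%.

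**Figure D4:**
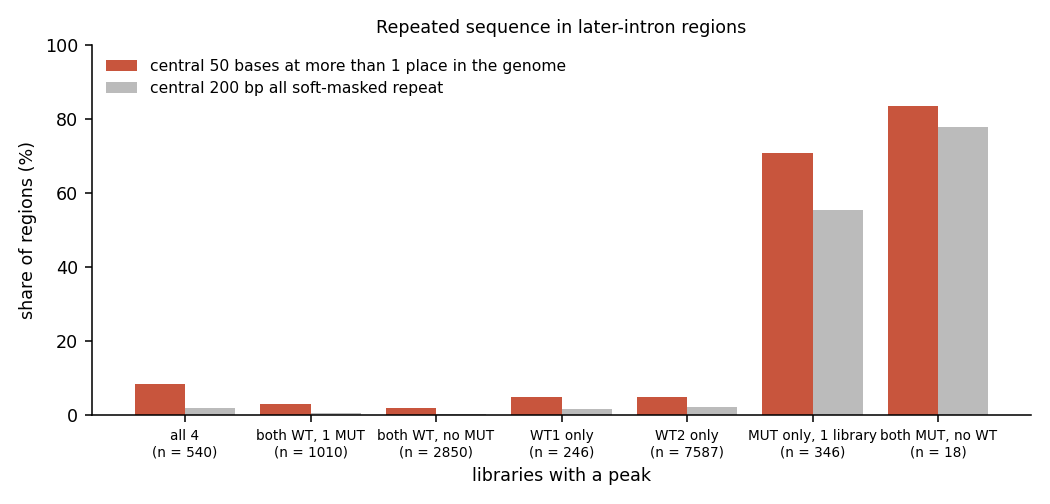
Share of later-intron regions, in percent, whose central 50 bases stand at more than 1 place in the genome (red) and whose central 200 bp are all soft-masked repeat (grey), by the libraries with a peak. Regions of MUT libraries alone reached 70.8% and 83.3%, against 2.04% for the regions of both WT libraries without a MUT peak.

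Repeated sequence took a larger share of the MUT libraries as a whole, since 15.8% and 23% of their later-intron regions had copies, against 3.18% and 5.55% in the WT libraries. Where only the 12183 regions with a single copy were kept, a setting added after the data were seen, the share of WT-shared regions without a MUT peak was 65.4% (2792 of 4266). The number of MUT-shared regions without a WT peak was then 3. Of the 18, the region in Pepd ranked highest, with scores of 85 and 47 in MUT replicates 1 and 2. It was followed by A630089N07Rik (49 and 87), Pdia3 (48 and 71), a transcript near Speer4cos (48 and 43) and Rimbp2 (32 and 49). HOMER found no peak in any library at these 5, and the central 50 bases were single in the genome in A630089N07Rik and near Speer4cos.

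The best-scoring regions of all 4 libraries were few and in part unusual. After the mitochondria-like region near Gad2, with scores of 436, 479, 433 and 458 in WT replicates 1 and 2 and MUT replicates 1 and 2, came a region in the last intron of Apool on chromosome X with 270, 737, 342 and 599. Intron 2 of Mef2c, which encodes a transcription factor of lymphoid and myeloid progenitors, scored 245, 364, 132 and 93. Intron 6 of Ppa2, a mitochondrial pyrophosphatase, scored 209, 395, 108 and 197, and the last intron of Atrnl1 189, 539, 318 and 586. The central 50 bases of the Apool region stand at 2 places in the genome, and HOMER found no peak at the Atrnl1 region in any library. Of these 5, Mef2c and Ppa2 scored lower in both MUT libraries than in both WT libraries.

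Among the regions without a MUT peak, the highest WT percentiles were found in Megf10 (scores 90 and 175 in WT replicates 1 and 2), Acot12 (92 and 160), Asb2 (76 and 217), Ubac2 (72 and 232) and Cd2ap (105 and 127). Asb2 encodes the substrate receptor of a ubiquitin ligase of haematopoietic cells, and Cd2ap an adaptor of the actin cytoskeleton. HOMER also found a peak in both WT libraries at each of these 5, but in addition one in MUT replicate 2 at Megf10, Acot12, Asb2 and Ubac2, and one in MUT replicate 1 at Ubac2. Of the 5, Cd2ap was the one without a MUT peak by either program.

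Over all genes with a peak of any annotation, 35.6% (6333 of 17777) had fewer peaks in both MUT than in both WT libraries. Counting later-intron peaks only, this held for 1771 of 5178 host genes (34.2%), and the opposite for 9. No later-intron peak in a MUT library was found for 3568 host genes (68.9%). By library, host genes with such a peak numbered 2661 and 4950 in WT replicates 1 and 2. In MUT replicates 1 and 2 they numbered 883 and 1298. Many of the 5178 host genes thus also had none in WT replicate 1.

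Described here are 13 host genes with a later-intron region that the study names, and 7 of them had fewer such peaks in both MUT libraries. The study named them with these samples in view, so this count is no independent evidence of direction. Etv6, an ETS repressor needed for stem-cell maintenance in bone marrow, had 9 later-intron regions, with 6 and 9 peaks in WT replicates 1 and 2 and 5 and 1 in MUT replicates 1 and 2. Among its 6 WT-shared regions 3 were without a MUT peak by MACS2, and 1 of these also by HOMER. The strongest, at chr6:134220160-134220872 and open in all 4 libraries, scored 61, 173, 64 and 13. Runx1, a master regulator of definitive haematopoiesis, had 3 and 9 peaks in WT and 0 and 2 in MUT libraries. One of its 3 WT-shared regions, chr16:92715521-92716120 in intron 2, scored 34 and 58 and had no MUT peak, and the other two kept one in MUT replicate 2.

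Igf1r, the receptor of insulin-like growth factor, had 5 and 8 peaks in WT and 1 in each MUT library. Of its 5 WT-shared regions in intron 2, 4 had no MUT peak by MACS2 and 2 of them none by HOMER, and the fifth scored 49, 142, 43 and 34. Cdk6, a kinase of the G1 phase, had 2 and 13 in WT and 0 and 1 in MUT libraries, and both of its WT-shared regions were without a MUT peak by MACS2, while HOMER found one at the second in both MUT libraries.

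The E-protein genes differed. Tcf4 had 4 and 15 peaks in WT and 4 and 1 in MUT libraries, so that the genotypes overlapped, and 1 of its 4 WT-shared regions lacked a MUT peak. Tcf12 had 1 and 3 peaks in WT and 0 in both MUT libraries. Ebf1, which specifies the B lineage, had 2 and 10 in WT and 1 and 2 in MUT libraries, and also overlapped. Ikzf2, which encodes Helios, had 1 and 5 peaks in WT, and Gata3, a T-lineage factor, 1 and 2, with 0 in both MUT libraries for each. Ezh2, Nanog, Klf3 and Spi1 had a single region each, seen in WT replicate 2 alone. No later-intron peak lay in Bmi1, Il7r, Tcf3, Foxo1, Mycn or Myc.

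**Figure D5:**
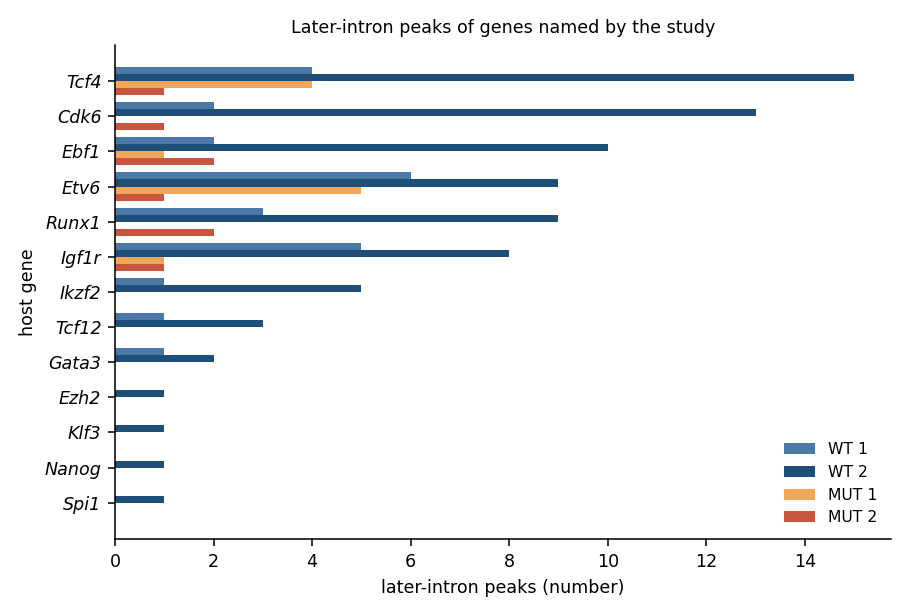
Number of later-intron peaks per library in 13 host genes that the study names and that have such a region. In 7 of them, Runx1, Igf1r, Cdk6, Etv6, Ikzf2, Tcf12 and Gata3, both MUT libraries had fewer peaks than both WT libraries.

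The gene lists were counted in the same way. Of the 66 listed genes with a later-intron region, 32 had fewer peaks in both MUT than in both WT libraries and 0 had more, against the 34.2% of all host genes. They were 4 of 10 genes of the B lineage, 6 of 9 of T and NK cells, 1 of 3 of myeloid cells, 0 of 3 of erythroid cells and megakaryocytes, 9 of 15 of growth factor receptors and signalling, 2 of 5 of the cell cycle and 2 of 9 chromatin regulators. A gene without a peak in WT replicate 1 cannot meet this count, and one with more regions meets it more easily. The 66 listed of 5176 host gene symbols held 293 of the 13153 regions, so nothing is read from these counts. Among 12 stem and progenitor transcription factor genes with a later-intron region, 8 had fewer peaks in both MUT libraries, and the summed peaks were 26 and 81 in WT and 8 and 9 in MUT libraries. Of their 26 WT-shared regions, 16 (61.5%) had no MUT peak. Mecom, needed for stem-cell maintenance, had 5 and 16 against 2 and 2, and Meis1 4 and 8 against 1 and 2. Bcl11a and Hlf had 7 and 4 peaks in WT replicate 2 and none elsewhere.

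Growth factor receptor and signalling genes had 31 and 59 peaks in WT and 7 and 6 in MUT libraries, and 19 of their 24 WT-shared regions (79.2%, Wilson 95% interval 59.5 to 90.8) had no MUT peak. Prkcb, a protein kinase C of B cells, had 13 regions, with 8 and 12 peaks in WT and 0 in both MUT libraries, and all 7 of its WT-shared regions were lost. Vav3 had 4 and 6 peaks in WT, Lyn 2 and 6 and Prkch 2 and 4, with 0 in both MUT libraries for each. Kit had 1 region, with a peak in WT replicate 2 and in both MUT libraries, in sequence that has copies elsewhere in the genome. Vav1, whose promoter drives the Cre transgene, kept one in all 4 libraries.

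B-lineage genes had 18 and 62 peaks in WT and 11 and 6 in MUT libraries, and 10 of 18 WT-shared regions (55.6%) had no MUT peak. Bach2, a repressor that restrains plasma-cell differentiation, had 5 and 17 against 3 and 0. Lef1 kept a MUT peak at both of its WT-shared regions, and Ikzf1 at 1 of 3. In the T and NK list 6 of 8 such regions were lost, in the cell cycle list 4 of 4, in the myeloid list 4 of 9 and among chromatin regulators 4 of 10. The erythroid and megakaryocyte list had a single WT-shared region, in Vwf, with peaks in all 4 libraries. Dnmt3a and Jarid2 kept a MUT peak at 2 of 4 and 2 of 3. Dido1 itself had 1 region, in intron 6, with a peak in 3 of the 4 libraries, which lies outside the deleted exon and does not test the genotype. Over the 100 WT-shared regions of all lists 63.0% (53.2 to 71.8) were lost, against 64.8% over all host genes.

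The genes with the most later-intron regions were long genes, several of them with known roles in neurons. Pde4d, a cAMP phosphodiesterase, had 38 regions, with 14 and 35 peaks in WT and 0 and 7 in MUT libraries. Nav2 and Wwox had 36 each, with 11 and 35 against 2 and 2, and 15 and 36 against 2 and 3. Hdac9, a histone deacetylase, had 8 and 21 against 1 and 1, and all 8 of its WT-shared regions were lost. In 9 of the 10 genes with the most regions both MUT libraries had fewer peaks than both WT libraries, against 34.2% of all host genes. These genes were picked by their number of regions, most of which come from WT replicate 2, so nothing is read from this count. The exception was Ctnna3, with 2 and 15 against 3 and 8 peaks, where 12 of 22 regions had copies elsewhere in the genome and 7 were seen in MUT libraries only. Gm3383 had 23 regions, 20 of them with copies, so that its peaks cannot be assigned with certainty.

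Tag counts in the deposited lists of differential regions gave the direction as a value per library. The lists were made with HOMER and their regions were selected on this contrast, so the values are a description. The longer list overlapped 1571 of the 13153 regions (11.9%) and the shorter one 711 (5.41%). All 1488 list regions that overlapped a later-intron region in the longer list had fewer tags in both MUT libraries than in both WT libraries. So did 8534 of the 8540 regions of the whole list, so nothing is read from this count. Median log2 values of the 1488 were 6.13 and 6.08 in WT and 5.09 and 5.16 in MUT libraries. Their median difference was -0.92, against -0.93 over the whole list. The list took 730 of the 2850 regions without a MUT peak (25.6%) and 245 of the 540 in all 4 libraries (45.4%). For the former, the median log2 values were 5.60 and 5.55 in WT and 4.61 and 4.66 in MUT libraries. For the latter they were 7.31, 7.28, 6.32 and 6.22. The median differences were -0.92 and -0.95. The list was selected for this difference, so these values say nothing of the regions of either set that it does not hold.

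Single regions showed the size of this difference. In Meis1, a region of intron 8 with peaks in all 4 libraries had log2 tag values of 6.93 and 6.89 in WT and 5.96 and 6.04 in MUT libraries. In Vav1, intron 2 had 10.01 and 9.98 against 9.06 and 9.02. The Ebf1 region of intron 7 had 5.69 and 5.81 against 4.62 and 5.15. In Igf1r, 1 region of intron 2 without a MUT peak had 5.67 and 5.45 against 4.34 and 4.94. None of the 364 regions with a MUT peak alone overlapped either list. The lists held few regions with a higher mean in MUT libraries, 6 of 8540 in the longer and 19 of 5231 in the shorter. Nothing is therefore read from this absence.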

How the data were processed

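Omni-ATAC-seq libraries of sorted LSK cells (2 WT, 2 Dido1∆E16) were analysed. Per the paper's methods and the processing notes of the submitters (BWA 0.7.15), the authors aligned reads to GRCm38/mm10 with Bowtie2 and BWA-MEM, removed duplicates and blacklisted regions and ran MACS2 and HOMER on each library. Peaks were annotated by ChIPseeker on UCSC known genes, with promoters from 1 kb before to 200 bp after the transcription start. The deposited MACS2 files hold a score and a width in bp per peak. The deposited HOMER peaks have no usable rank. The authors' deposited lists of differential regions, made with HOMER, hold log2 tag counts per library, and their fold changes and p-values were not used. The deposited StringTie files of pre-B cells hold TPM. The authors' edgeR tables were not used.

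Peaks on 21 chromosomes with an intron number of 2 or more were merged where they shared 1 bp, with Python 3.11.15, numpy 2.4.6 and pandas 2.3.3. The host gene is the one named inside the annotation entry. The spans of 99.5% of 17746 genes in the files overlapped their RefSeq span on GRCm38, whose sequence was then read. Libraries were compared by exact permutation tests (SciPy 1.17.1), shares by Wilson intervals. The rules were tested on 2000 simulated regions, and 5 of 5 gave the known answer. Named genes are those of the study's ATAC-seq results, the 10 with most regions, the regions with the highest percentiles and members of 8 lists. Members, lists and tests were chosen with earlier results of these data known. Genes such as Prkcb, Vav3 and Hdac9 were named among their lists after their values were seen. A few items withheld for evaluation are not reported here.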

Additional observations from a re-analysis of the deposited data

How the results depend on the processing

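No p-value here can fall under 0.33, so calls could not change. The lower share of later-intron peaks in MUT libraries kept its direction under all alternatives, from -10.9 to -6.60 points when one library was left out. With the replicate number as a block the difference stayed -8.77 points (exact sign-flip p = 0.5, the smallest that 2 pairs can give), and that of the score percentile -6.94. Same-numbered libraries share only a number: over 540 regions their deviations had a correlation of -0.098. The percentile difference ran from -10.7 to -3.16 when one library was left out. The share of WT-shared regions without a MUT peak was 42.5% with HOMER peaks and 29.95% with equal numbers of best-scoring peaks, and from 66.5% to 83.3% without one library. The number of MUT-shared regions without a WT peak was 5 with HOMER peaks, 6 with the better-scoring 50% of peaks, 100 with equal numbers, 3 with single-copy regions only, and from 18 to 295 without one library. The gap to promoters was 20.1 points with equal numbers and from 26.9 to 40.7 without one library. The gap to first introns was 6.95 points when a MUT peak had to lie in the same kind of intron, 4.16 with the better 50%, 10.1 for introns 3 and later, 5.20 with equal numbers and from 6.46 to 8.81 without one library. The gap to intergenic regions was 2.28, 4.89 and 1.5 points in these last 3 settings, and from 2.70 to 3.70 without one library. HOMER peaks carry no rank, so gaps within score classes could not be computed for them. Of 11 motifs, 9 were more frequent than in the flanks in windows of 100, 200 and 400 bp and in WT-shared regions alone. The causes of these shifts were not tested. The total of tags per library bounds the depth, and with 10249256 tags in WT replicate 1 a weak site may be missed there.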

Other observations

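The host genes were also looked up in the RNA-seq libraries of pre-B cells, a later stage of the B lineage than the LSK cells of the accessibility data, so the values stand side by side without a test. Of 5176 host gene symbols 5086 had a TPM value, summed over transcripts placed on GENCODE genes by at least 50% of their exonic bases. Their median was 2.85 and 2.12 TPM in WT and 4.35 and 4.38 TPM in Dido1∆E16 pre-B libraries, and 2513 of them (49.4%) reached 1 TPM in all 4 libraries. Of all 25616 genes with a value, 9940 (38.8%) did, and their medians were 0 and 0 TPM in WT and 0.066 and 0 TPM in Dido1∆E16 libraries. Host genes with at least one WT-shared region that kept a MUT peak in LSK cells had medians of 5.53, 5.07, 7.91 and 8.17 TPM, and those in which every such region was lost had 1.08, 0.485, 2.49 and 2.50 TPM. Ebf1 had 452, 449, 431 and 423 TPM, and Tcf12 268, 226, 226 and 261, although the latter had no later-intron peak in the MUT LSK libraries. Ikzf2 was listed at 0 TPM in all 4 pre-B libraries.

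The telomeric unit TTAGGG or its complement, at least 3 times in tandem, stood in 27 of the 13153 regions. It was found in 7 of the 540 regions of all 4 libraries and in 3 of the 364 seen in MUT libraries only.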
